A study of Mus musculus with 6 samples.

Results

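The genes described here carry peptides to the cell surface on MHC class I molecules. They are the heavy chains H2-K1 and H2-D1, the light chain B2m, the peptide transporter and loading genes Tap1, Tap2 and Tapbp, the immunoproteasome subunits Psmb8, Psmb9 and Psmb10, and the transcriptional regulator Nlrc5. They were taken by gene symbol from the deposited table, which held 10 of the 10 genes listed, among 17890 genes in all. RNA was sequenced from mouse mast cells of lymph nodes holding tumour metastases (mLN, 3 libraries) and of uninvolved lymph nodes (uLN, 3 libraries). Mast cells are tissue-resident granulocytes that carry the receptor Kit and the high-affinity IgE receptor. Strain, age, kind of tumour and isolation method are not stated in the labels used here. The only comparison the design holds is mLN against uLN, which asks how mast cells of metastatic nodes differ from those of uninvolved nodes.

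Nearly all nucleated cells make class I. Proteasomes cut cytosolic proteins into peptides, the TAP transporter moves them into the endoplasmic reticulum, and tapasin (Tapbp) holds the empty class I molecule to TAP until a peptide binds. Interferon gamma replaces the constitutive catalytic subunits Psmb5, Psmb6 and Psmb7 by Psmb8, Psmb9 and Psmb10, which gives the immunoproteasome and alters the peptides made. NLRC5 is a coactivator that acts with the RFX and NF-Y factors at the conserved promoter boxes of class I and related genes.

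Library totals ran from 17643916 to 17799420 estimated counts. Levels are counts relative to the TMM-scaled library size (CPM), and a gene was called higher or lower at an adjusted p under 0.05 (Benjamini-Hochberg) in the quasi-likelihood test of edgeR over 12706 tested genes. Of these, 67.4% were called, 33.2% higher and 34.2% lower in mLN, so a count of calls is read against those shares. Replicates varied by an estimated 9.1% in mLN and 2.9% in uLN. The median chi-square per gene between libraries of 1 group was 0.65 to 0.74 for all pairs without mLN replicate 3. Pairs with that library gave 2.48 and 2.58, and 0.45 is the value under counting error alone. Between groups it was at least 13.1. The labels do not say that replicates are separate animals, so p-values measure only how these libraries scatter, possibly for technical reasons.

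Of the 10 genes, 7 lie on chromosome 17, in and near the mouse MHC, with B2m on chromosome 2 and Psmb10 and Nlrc5 on chromosome 8. In GRCm38 the heavy and light chains are H2-K1 (gene ID 14972) at chr17:33996012-34000619, strand -, H2-D1 (gene ID 14964) at chr17:35263094-35267497, strand +, and B2m (gene ID 12010) at chr2:122147687-122153082, strand +. The transporter and loading genes are Tap1 (gene ID 21354) at chr17:34187556-34197225, strand +, Tap2 (gene ID 21355) at chr17:34204479-34216321, strand +, and Tapbp (gene ID 21356) at chr17:33919478-33929290, strand +. The immunoproteasome genes are Psmb8 (gene ID 16913) at chr17:34198195-34201454, strand +, Psmb9 (gene ID 16912) at chr17:34182030-34187330, strand -, and Psmb10 (gene ID 19171) at chr8:105935728-105938392, strand -. The regulator is Nlrc5 (gene ID 434341) at chr8:94434335-94527272, strand +. Sequences upstream of the start site are shown for H2-K1, H2-D1, B2m and Tap1, whose promoters hold conserved class I or NF-Y boxes, and for Psmb10, whose level differed most between the groups. Each run is the 250 bases before a RefSeq transcript start in GRCm38.p6. Capitals mark matches on either strand to CCAAT (the NF-Y box), TGACG (found in the X2 box and in cyclic AMP response elements), GGG and CC with any 5 bases between them (a kappa B form), TTCNNNGAA (a STAT site), GAAA and GAAA with any 2 bases between them (the core of the interferon-stimulated response element) and GAANNGAAA (a shorter form of that element, added after the windows were seen).
H2-K1, chr17:34000334-34000583, strand -: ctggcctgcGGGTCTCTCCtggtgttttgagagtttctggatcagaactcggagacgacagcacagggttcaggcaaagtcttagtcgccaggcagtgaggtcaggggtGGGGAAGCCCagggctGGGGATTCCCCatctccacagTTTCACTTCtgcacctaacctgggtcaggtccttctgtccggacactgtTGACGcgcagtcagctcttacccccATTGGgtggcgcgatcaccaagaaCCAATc
H2-D1, chr17:35262844-35263093, strand +: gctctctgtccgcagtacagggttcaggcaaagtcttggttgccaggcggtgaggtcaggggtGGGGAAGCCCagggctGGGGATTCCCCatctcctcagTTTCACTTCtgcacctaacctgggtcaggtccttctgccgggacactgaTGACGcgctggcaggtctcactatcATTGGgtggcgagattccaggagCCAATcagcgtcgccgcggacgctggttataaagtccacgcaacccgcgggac
B2m, chr2:122147437-122147686, strand +: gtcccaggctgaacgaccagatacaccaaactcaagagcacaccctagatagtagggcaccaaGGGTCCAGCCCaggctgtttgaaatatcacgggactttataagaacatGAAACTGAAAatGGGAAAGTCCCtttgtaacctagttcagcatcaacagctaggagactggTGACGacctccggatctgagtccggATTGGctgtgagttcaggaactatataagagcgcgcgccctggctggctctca
Tap1, chr17:34187306-34187555, strand +: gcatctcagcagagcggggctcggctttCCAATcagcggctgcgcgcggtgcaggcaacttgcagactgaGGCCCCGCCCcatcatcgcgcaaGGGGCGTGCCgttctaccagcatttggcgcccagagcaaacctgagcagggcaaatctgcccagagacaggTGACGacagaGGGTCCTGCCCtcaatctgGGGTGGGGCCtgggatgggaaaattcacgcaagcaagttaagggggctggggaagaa
Psmb10, chr8:105938393-105938642, strand -: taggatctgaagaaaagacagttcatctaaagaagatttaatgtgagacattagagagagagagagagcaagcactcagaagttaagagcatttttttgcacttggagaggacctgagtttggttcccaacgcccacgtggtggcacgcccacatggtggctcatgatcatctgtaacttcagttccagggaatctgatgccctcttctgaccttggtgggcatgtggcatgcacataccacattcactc

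RefSeq windows were found for 8 of the 10 genes, and H2-K1 had 2 of them, of which the one ending further downstream is shown. The H2-K1 and H2-D1 windows matched at 172 of 191 aligned bases (90.1%), and the run of kappa B, interferon and TGACG matches stands in the same order in both. CCAAT was found in 6 of the 8 genes, against 33.8% of all 32851 windows of that length in the table. TGACG was found in 5 genes against 17.8% of windows, and the kappa B form in 5 against 45.8%. B2m held the only match to the interferon core, which 2.98% of all windows hold. H2-K1 and H2-D1 held the shorter form, found in 6.31% of windows, and Psmb8 held the only TTCNNNGAA match, found in 7.02%. Matches of the kappa B form overlap each other in several windows and were counted once per gene. Tap1 and Psmb9 are transcribed away from each other and their windows overlap, so they share sequence. The Psmb10 window held 0 of the 6 motifs, which says only that these letters are not in it.

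Most class I genes changed by less than 2-fold in mLN, and Psmb10 fell further. Of the 10 genes, 6 rose (H2-K1, B2m, Tap1, Tapbp, Psmb9 and Nlrc5), 2 fell (Tap2 and Psmb10) and 2 were not called (H2-D1 and Psmb8). Over all tested genes, 33.2% rose and 34.2% fell. The rises ran from 1.12-fold for Tapbp to 1.75-fold for Nlrc5, and Psmb10 fell 4.09-fold. The median log2 fold change of the 10 genes was 0.22, against -0.01 over all tested genes. Of the 10 genes, 0 rose by at least 2-fold, against 9.70% of tested genes, and 1 fell by at least 2-fold, against 6.16%. Expression in the 2 groups did not overlap for 9 of the 10 genes, against 72.9% of tested genes. With the coefficient of variation set to 0.2 in place of its estimate, 0 of the rises and 1 of the falls, that of Psmb10, were called.

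**Figure D1:**
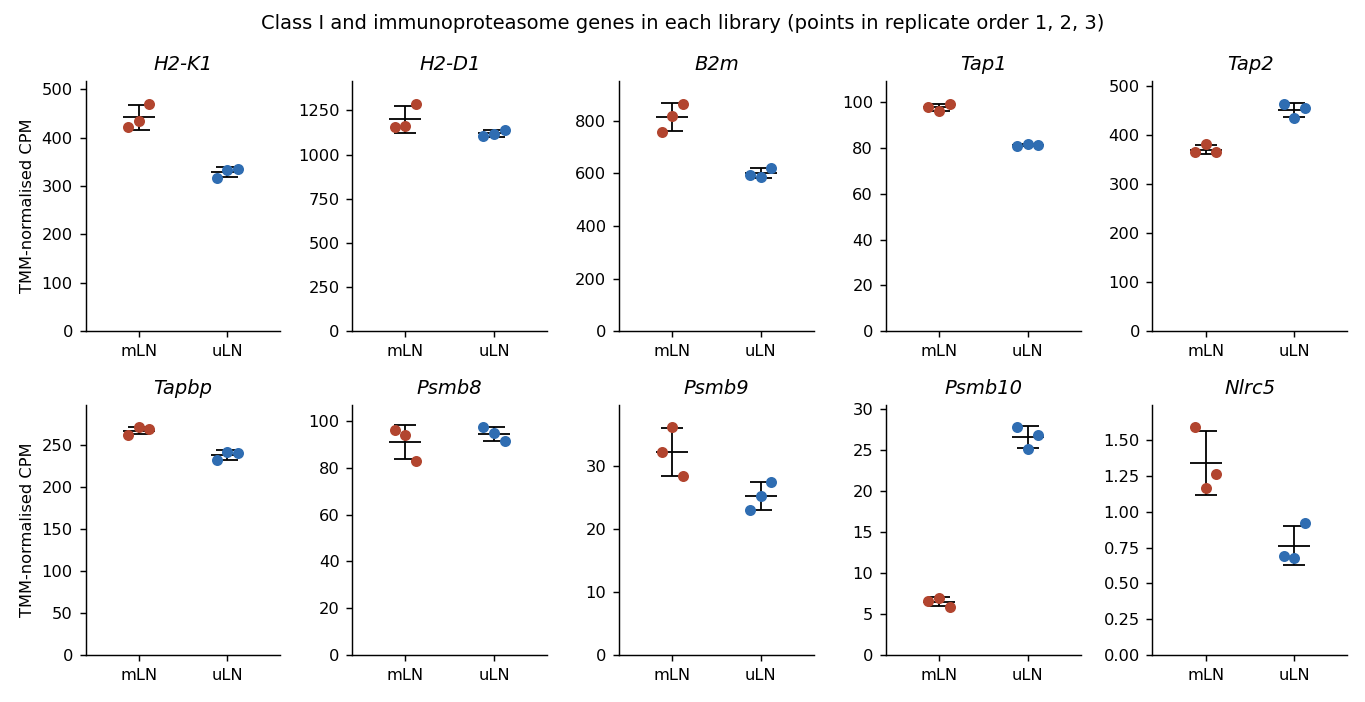
Level of each gene in TMM-normalised CPM (y axis, from 0) in the mLN libraries (red) and the uLN libraries (blue), with bars for the mean and SD of 3 libraries. Psmb10 sits between 5.86 and 6.95 CPM in mLN, below 25.1 to 27.7 CPM in uLN, while only Psmb8 overlaps between the groups.

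**Figure D2:**
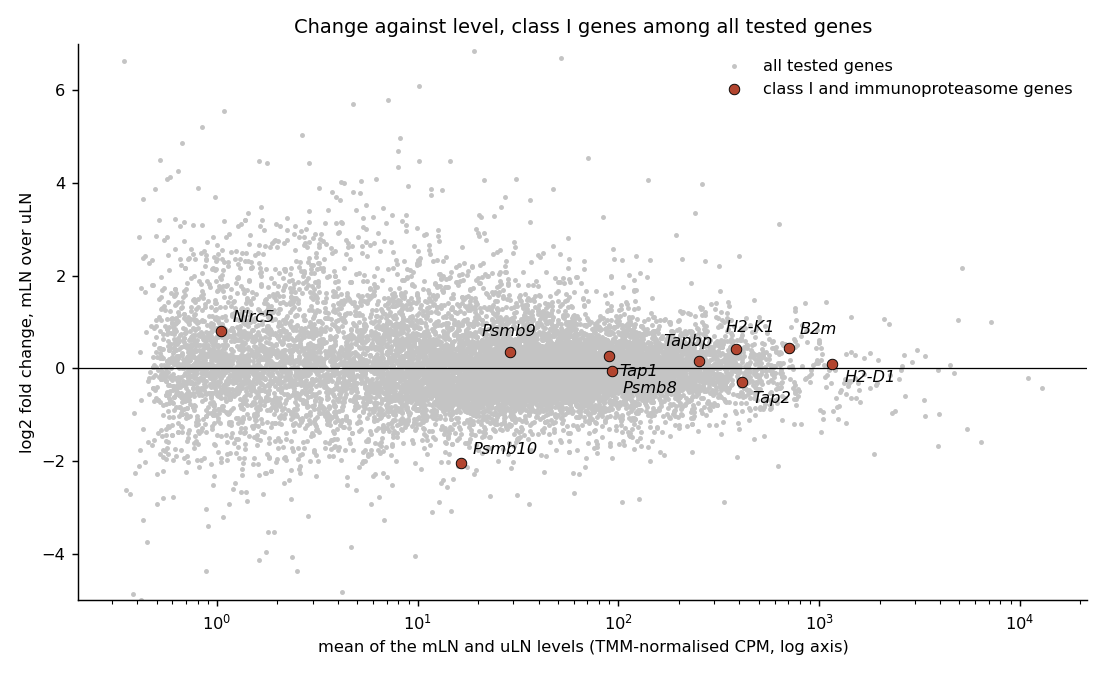
Log2 fold change of mLN over uLN (y axis) against the mean CPM of the 2 group means (x axis, log scale) for all tested genes (grey, 5 genes lie outside the range drawn) and the class I and immunoproteasome genes (red). H2-D1, B2m and H2-K1 are among the most abundant transcripts, at log2 fold changes of 0.10, 0.44 and 0.43, and Psmb10 lies at -2.03.

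The classical heavy chain H2-K1, which presents peptides to CD8 T cells, had 421, 434 and 470 CPM in mLN replicates 1, 2 and 3, against 316, 333 and 335 CPM in uLN. Every mLN library was above every uLN library. H2-K1 rose 1.35-fold, a log2 fold change of 0.43 ± 0.05 (SE), with an edgeR adjusted p of 3.11e-05. The second classical heavy chain, H2-D1, had 1154, 1159 and 1287 CPM in mLN and 1105, 1115 and 1141 CPM in uLN. The libraries of the 2 groups lie side by side without overlapping, and mLN replicate 3 stands above the rest. The H2-D1 log2 difference was 0.10, with a 95% interval from -0.01 to 0.21, and it was not called (edgeR adjusted p = 0.0986). It was called with library totals in place of TMM scaling (log2 difference 0.13, edgeR adjusted p = 0.0177). Whether the 2 heavy chains differed in their change was not tested.

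B2m, the light chain that every class I molecule needs, had 758, 819 and 865 CPM in mLN, against 593, 587 and 621 CPM in uLN. All 3 mLN libraries were higher than all 3 uLN libraries. B2m rose 1.36-fold, a log2 fold change of 0.44 ± 0.05 (SE), with an edgeR adjusted p of 3.49e-05. H2-K1, H2-D1 and B2m each peaked in mLN replicate 3 and were lowest within mLN in replicate 1. Without mLN replicate 3, all 3 kept their side of the threshold.

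H2-K1 and H2-D1 have close relatives, and their deposited counts are not whole numbers, so reads were shared out between rows. The deposited counts of Tap1, Tap2 and Tapbp are not whole numbers either. In the GENCODE transcripts of the reference strain, 1.0% of the 100-base stretches of H2-K1 and 3.6% of those of H2-D1 also occur in another gene. Class I heavy chain rows were taken by their H2 symbols, 22 in all, including H2-T-ps (45.4 CPM in mLN, 25.2 in uLN). Any class I gene under another symbol was left out. Summed over these 22 rows, the level was 2244, 2281 and 2489 CPM in mLN, against 2023, 2064 and 2085 CPM in uLN. H2-K1 and H2-D1 made up 70.3% of that sum. The sum rose by 0.18 ± 0.05 (SE) on the log2 scale, with an edgeR adjusted p of 0.00491. Class I genes differ between mouse strains, and how the strain used here bears on their counts was not tested.

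Among other heavy chain and class I-like genes, 17 were tested. Of these, 9 rose and 1 fell, so 58.8% were called, against 67.4% of all tested genes. The median log2 fold change was 0.70. Mr1, which presents vitamin B metabolites to MAIT cells, rose 2.95-fold to 57.4 ± 5.05 CPM in mLN, against 19.5 ± 0.897 CPM in uLN (SD, n = 3 each). The nonclassical heavy chain H2-Q4 rose 1.75-fold to 71.6 ± 5.03 CPM in mLN, against 40.8 ± 3.22 CPM in uLN (SD, n = 3 each). H2-T10 rose 1.54-fold, and H2-M3, which presents formylated peptides, rose 1.80-fold. H2-T22, picked after its values were seen, had 62.3 CPM in mLN, against 65.9 CPM in uLN, and was not called. The deposited counts of H2-Q4, H2-T10, H2-M3 and H2-T22 are not whole numbers, and how the sharing of reads bears on them was not tested. Cd1d1, which presents lipids and was picked after its values were seen, fell 2.27-fold to 1.19 CPM in mLN, against 2.72 CPM in uLN. H2-T23, the mouse Qa-1 heavy chain, also picked after its values were seen, was the most abundant of this list at 404 ± 19.7 CPM in mLN, against 395 ± 6.34 CPM in uLN (SD, n = 3 each). It was not called (log2 difference 0.03, 95% interval from -0.07 to 0.13). The deposited counts of H2-T23 are not whole numbers either.

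The transporter subunits moved in opposite directions. Tap1 had 97.7, 96.0 and 99.2 CPM in mLN, against 80.7, 81.8 and 81.2 CPM in uLN, a narrow spread in both groups with no overlap. Tap1 rose 1.20-fold (log2 fold change 0.26 ± 0.04 SE, edgeR adjusted p = 0.000325). Tap2 had 366, 381 and 365 CPM in mLN, against 464, 435 and 455 CPM in uLN, all mLN libraries being lower. Tap2 fell 1.22-fold (log2 fold change -0.29 ± 0.04 SE, edgeR adjusted p = 0.000176). Both chains are needed for a working transporter. The deposited counts of Tap1 and Tap2 are not whole numbers, but in each library the 2 add up to a whole number. In mLN replicate 1, for example, they were 1783.35 and 6672.65. Reads were thus shared out between Tap1 and Tap2. In the GENCODE transcripts, 0.0% of the 100-base stretches of either gene occur in another gene. Moving reads from either gene to its partner lowers the first count and raises the second. How far this bears on the opposite directions was not tested. Tapbp, which encodes tapasin, had 262, 271 and 269 CPM in mLN and 232, 242 and 241 CPM in uLN. Its rise was the smallest of the called members, 1.12-fold (log2 fold change 0.17 ± 0.04 SE, edgeR adjusted p = 0.00473). Tapbp counts are not whole numbers either, and 0.1% of its 100-base stretches in the GENCODE transcripts occur in another gene. How the sharing of reads bears on the Tapbp rise was not tested.

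In the list of genes for peptide trimming, loading and folding in the endoplasmic reticulum, 15 were tested. There were 6 rises, 5 falls and 4 genes without a call, around a median log2 fold change of 0.012. The share called was 73.3%, against 67.4% of all tested genes. Calr, the chaperone calreticulin of the loading complex, rose 1.75-fold to 523 ± 32.2 CPM in mLN, against 299 ± 6.83 CPM in uLN (SD, n = 3 each). Canx, the chaperone calnexin, rose 1.51-fold, and the disulfide isomerase Pdia6 rose 1.89-fold. Tapbpl, the tapasin-related peptide editor TAPBPR, moved the other way. It fell 3.11-fold to 7.18 ± 1.56 CPM in mLN, against 22.4 ± 0.147 CPM in uLN (SD, n = 3 each), with an edgeR adjusted p of 1.39e-06. Erap1, the aminopeptidase that trims peptides for class I, picked after its values were seen, was not called (log2 difference -0.20, 95% interval from -0.40 to 0.0036).

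Psmb10, the immunoproteasome subunit MECL-1 that replaces Psmb7, changed most. It had 121, 125 and 102 reads in mLN replicates 1, 2 and 3, against 484, 445 and 466 reads in uLN. As levels, these were 6.63, 6.95 and 5.86 CPM in mLN and 27.7, 25.1 and 26.8 CPM in uLN, with a wide gap between the groups. The log2 fold change was -2.03 ± 0.09 (SE), with an edgeR adjusted p of 3.34e-08. Of all tested genes, 0.763% had a lower log2 fold change.

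The other immunoproteasome subunits did not fall with it. Psmb9, or LMP2, which replaces Psmb6, had 32.3, 36.2 and 28.5 CPM in mLN, against 23.05, 25.3 and 27.5 CPM in uLN. The lowest mLN library stood just above the highest uLN library. Psmb9 rose 1.28-fold (log2 fold change 0.35 ± 0.10 SE, edgeR adjusted p = 0.00793). Psmb8, or LMP7, which replaces Psmb5, had 96.1, 94.2 and 82.8 CPM in mLN and 97.3, 94.8 and 91.5 CPM in uLN. The groups overlapped and it was not called (log2 difference -0.05, 95% interval from -0.19 to 0.08, edgeR adjusted p = 0.459). Without mLN replicate 3, in which Psmb8, Psmb9 and Psmb10 were each lowest within mLN, the Psmb8 log2 difference was 0.013.

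All 3 constitutive catalytic subunits fell, against 34.2% of all tested genes. Psmb5 averaged 19.8 ± 1.82 CPM in mLN, against 30.1 ± 2.70 CPM in uLN, Psmb6 averaged 32.5 ± 3.02 CPM in mLN, against 43.2 ± 2.43 CPM in uLN, and Psmb7 averaged 25.5 ± 2.43 CPM in mLN, against 35.2 ± 0.112 CPM in uLN (SD, n = 3 each). Their log2 fold changes were -0.61, -0.41 and -0.47, with edgeR adjusted p-values of 0.000167, 0.000806 and 0.000265. They too were lowest in mLN replicate 3. With the coefficient of variation set to 0.2, only the fall of Psmb5 was called.

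The ratio of an immunoproteasome subunit to its constitutive counterpart within a library does not depend on library scaling. The Psmb8 to Psmb5 read ratio was 4.47, 4.72 and 4.64 in mLN, against 3.603, 3.03 and 2.86 in uLN. The Psmb9 to Psmb6 ratio was 0.905, 1.12 and 0.963 in mLN, against 0.564, 0.554 and 0.640 in uLN. Both ratios were higher in every mLN library than in any uLN library, by 1.46-fold and 1.70-fold on average. The Psmb10 to Psmb7 ratio was 0.264, 0.248 and 0.252 in mLN, against 0.786, 0.712 and 0.763 in uLN, which is 2.96-fold lower in mLN. Each of the 3 comparisons gave p = 0.1 in a two-sided exact permutation test over libraries, which is the smallest value that 3 libraries against 3 allow and leaves the Benjamini-Hochberg value at 0.1. These are ratios of reads, so their size also depends on transcript length.

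**Figure D3:**
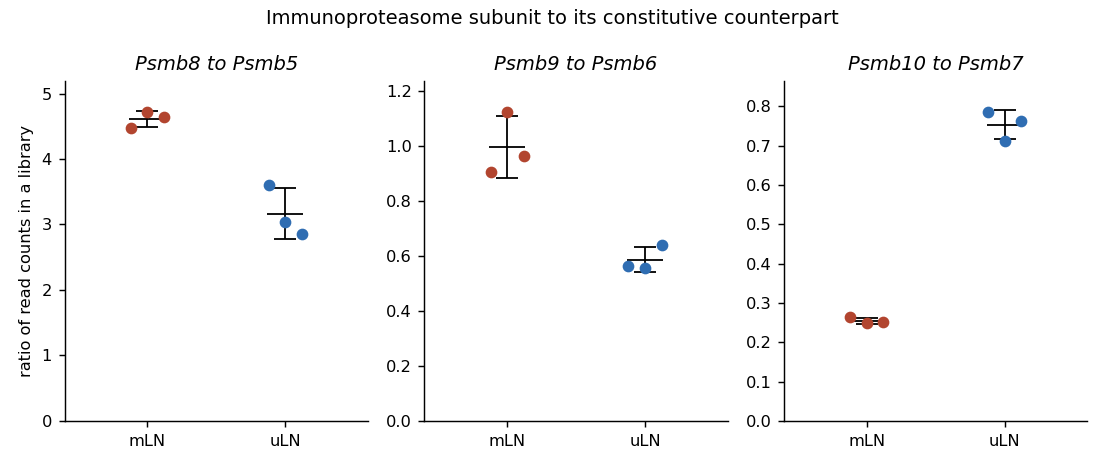
Read count of each immunoproteasome subunit over that of its constitutive counterpart (y axis, from 0) in mLN libraries (red) and uLN libraries (blue), with the mean and SD of 3 libraries. The Psmb8 to Psmb5 and Psmb9 to Psmb6 ratios are higher in all mLN libraries, and the Psmb10 to Psmb7 ratio of 0.248 to 0.264 in mLN lies below 0.712 to 0.786 in uLN.

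Of the other 11 subunits of the 20S core, there were 6 falls, 1 rise and 4 genes without a call (median log2 fold change -0.18). The share called was 63.6%, against 67.4% of all tested genes. The log2 fold changes of Psma4, Psmb4, Psma3 and Psmb2 were -0.37, -0.41, -0.36 and -0.34. Of 9 proteasome activator and assembly genes 5 fell and 1 rose, a share called of 66.7%. Psme1, a subunit of the interferon-inducible activator PA28, fell by 0.45 on the log2 scale to 59.0 ± 4.61 CPM in mLN, against 80.8 ± 2.83 CPM in uLN (SD, n = 3 each). Its partner Psme2, picked after its values were seen, was not called (log2 difference 0.15, 95% interval from -0.0031 to 0.31). Pomp, the chaperone for proteasome assembly, fell by 0.43, the activator gene Psme3 fell by 0.36 and Psme4, which encodes another activator, rose by 0.27 on the log2 scale. At that same coefficient of variation 0 of the 20S subunits and 1 activator or assembly gene, a fall, were called. The count of rises in this list came to 3 without mLN replicate 3 and to 2 without uLN replicates 2 or 3, and the count of falls came to 3 without uLN replicates 1 or 2.

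Nlrc5 was barely detected, at 29, 21 and 22 reads in mLN and 12, 12 and 16 reads in uLN. The level was 1.59, 1.17 and 1.26 CPM in mLN, against 0.688, 0.677 and 0.919 CPM in uLN, with all mLN libraries higher. The rise was 1.75-fold (log2 fold change 0.81 ± 0.29 SE, edgeR adjusted p = 0.0289). The call was lost without mLN replicate 1, without uLN replicate 1 or without uLN replicate 2 (edgeR adjusted p = 0.0916 to 0.110), and in DESeq2 (adjusted p = 0.109).

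Among 22 regulators of class I transcription and interferon gamma signalling, there were 9 rises, 9 falls and 4 genes without a call. The share called was 81.8%, against 67.4% of all tested genes. Irf1, an interferon-induced activator of class I and immunoproteasome genes, rose 1.92-fold to 89.4 ± 7.33 CPM in mLN, against 46.5 ± 3.72 CPM in uLN (SD, n = 3 each). Socs1, a feedback inhibitor of interferon signalling, rose 1.93-fold. Among the NF-Y subunits, Nfya rose by 0.58 and Nfyb, picked after its values were seen, by 0.67 on the log2 scale, while Nfyc fell 2.60-fold. Among the RFX subunits, all picked after their values were seen, Rfx5 and Rfxank fell by 0.81 and 0.72 on the log2 scale, while Rfxap rose by 0.32.

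Other interferon gamma targets gave 10 rises and 4 falls among 16 tested genes (median log2 fold change 0.72). The share called was 87.5%, against 67.4% of all tested genes. The guanylate-binding protein genes Gbp4, Gbp6 and Gbp9 rose by 3.27, 2.42 and 2.33 on the log2 scale, and the lysosomal thiol reductase gene Ifi30 by 2.22. These are larger than the change of any class I member that rose. The 4 falls were Gbp2, Ifi47, Wars and Irgm2, at log2 fold changes of -0.56, -0.54, -0.56 and -0.29. Igtp and Cd274 were not called. These 4 falls and the genes not called were picked after their values were seen. The chemokine genes Cxcl9 and Cxcl10, picked after their values were seen, averaged at most 0.210 CPM in either group and were not tested.

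In the list of receptors for class I and their relatives, 5 of 7 tested members fell, 1 rose and 1 was not called. The share called was 85.7%, against 67.4% of all tested genes. Pirb, an inhibitory receptor that binds class I on mouse myeloid cells and mast cells, fell 2.49-fold to 228 ± 18.3 CPM in mLN, against 566 ± 12.2 CPM in uLN (SD, n = 3 each). Pira1 and Pira2, its activating relatives, had log2 fold changes of -1.44 and -2.17. These genes are near copies of each other and reads could be shared out wrongly between them. Lilr4b, a family member with other ligands, fell by 0.40 on the log2 scale. Its relative Lilrb4a, picked after its values were seen and the most abundant of the list, rose 1.26-fold to 2007 CPM in mLN, against 1589 CPM in uLN. The class I co-receptor gene Cd8a, also picked after its values were seen, had 1.91 CPM in mLN and 2.53 CPM in uLN and was not called.

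**Figure D4:**
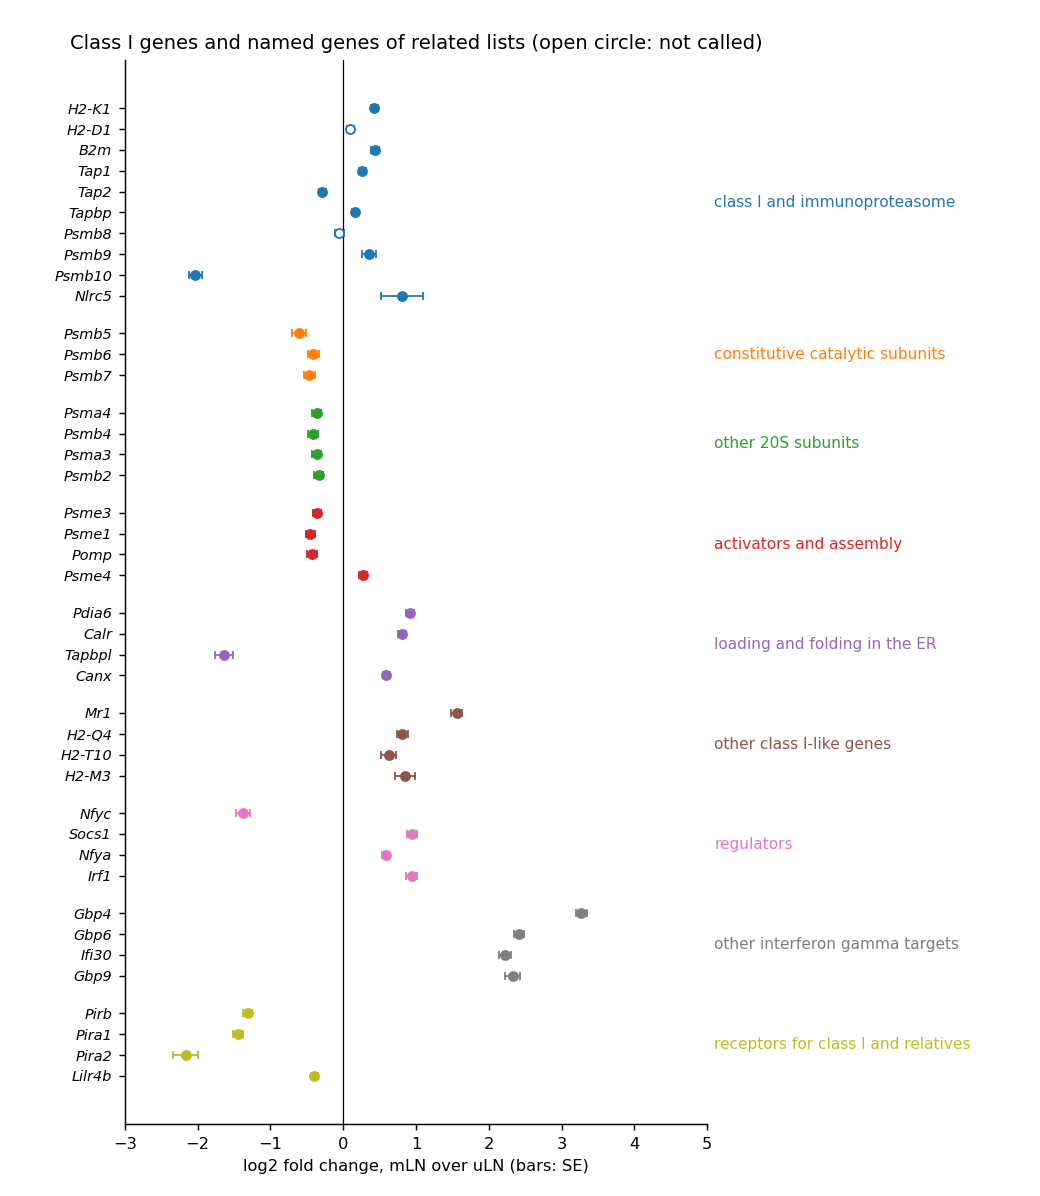
Log2 fold change of mLN over uLN (x axis, bars give the SE) for the class I and immunoproteasome genes and for the named genes of related lists, grouped by colour, with open circles for genes that were not called. Gbp4 at 3.27 is the highest of the genes drawn, Psmb10 lies at -2.03, and the constitutive subunits lie between -0.61 and -0.41.

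Levels between genes were compared as CPM per kilobase of the principal transcript. In mLN the order was B2m (947), H2-D1 (571), H2-K1 (273), Tap2 (108), Tapbp (92.2), Psmb8 (55.9), Tap1 (33.1), Psmb9 (23.9), Psmb10 (4.94) and Nlrc5 (0.177 CPM per kilobase). No neighbours in that order overlapped over the mLN libraries. In uLN, Psmb10 (20.25) and Psmb9 (18.7 CPM per kilobase) overlapped, so their order is not separated there. The constitutive subunits were at 21.98 (Psmb5), 40.7 (Psmb6) and 21.9 (Psmb7) CPM per kilobase in mLN, against 33.5, 54.1 and 30.4 in uLN. Tap2 stood above Tap1 in both groups, at 131 against 27.5 CPM per kilobase in uLN. The limit given above on how their reads were shared out holds here too.

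Profiles of log2 CPM over the 6 libraries, each centred on its mean, were compared by their root mean square difference. The members nearest to each other were H2-K1 and B2m, at 0.0342, followed by Tap1 and Tapbp at 0.0560. Each of them had nearer genes outside the members. The nearest was Smim14 for H2-K1 (0.0163), Rpe for B2m (0.0211), Fundc1 for Tap1 (0.0148) and Sh3glb2 for Tapbp (0.0133). Psmb10 was far from every other member, the nearest being Tap2 at 0.869. Among all tested genes Psmb10 was closest to Adamts5 (0.0511) and Gss (0.0557). Their log2 fold changes were -1.99 for Adamts5 and -1.94 for Gss.

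Markers of mast cells summed to 35300 to 38000 CPM in mLN and 37300 to 39000 CPM in uLN, and 11 of 12 listed markers were in the table. Single mast cell markers differed more than their sum, as 3 of 11 tested were called higher and 7 lower in mLN. Kit fell 2.47-fold to 3139 CPM in mLN, against 7756 CPM in uLN, while the protease genes Tpsb2, Cma1 and Mcpt4 rose 2.06-fold, 2.01-fold and 4.03-fold. Another protease gene, Cpa3, fell 1.35-fold to 10920 CPM in mLN, against 14734 CPM in uLN. The single markers given here were picked after their values were seen. T and NK cell markers summed to 3.18 to 4.45 CPM in mLN and 4.74 to 5.56 in uLN (8 of 10 in the table), and B cell markers to 0.919 to 1.70 in mLN and 2.01 to 2.47 in uLN (5 of 6). The T and NK cell sum was mostly Cd8a and Cd4, while Lck (0.334 CPM in mLN, 0.0759 in uLN) and Ncr1 (0.426 CPM in mLN, 0.0383 in uLN) were higher in each mLN library. The B cell sum was mostly Cr2 (0.797 CPM in mLN, 1.69 in uLN), which was called lower. Cd79a, which was not tested, averaged 0.408 CPM in mLN and 0.247 in uLN. Among the defining genes, Cd3d had 3 to 6 reads in mLN libraries and 1 to 8 in uLN libraries, Cd3g had 0 to 1 reads in mLN libraries and 0 in each uLN library, Ms4a1 had 0 in each mLN library and 0 to 2 in uLN libraries, and Cd79a had 5 to 9 in mLN and 3 to 5 in uLN. Dendritic cell markers summed to 15.6 to 17.8 CPM in mLN and 9.46 to 10.6 in uLN (8 of 8). Most of that sum was Itgax (13.2 CPM in mLN, 7.17 in uLN), while Zbtb46 and Xcr1 were not called. Ccr7 (0.390 CPM in mLN, 0.0382 in uLN) and Clec9a (0.261 CPM in mLN, 0.0571 in uLN) were not tested but higher in each mLN library. Neutrophil markers summed to 5.97 to 8.73 CPM in mLN and 6.13 to 7.45 in uLN (6 of 7). Csf3r made up most of it (6.57 CPM in mLN, 6.64 in uLN) and was not called. Ngp (0.612 CPM in mLN, 0.019 in uLN) was not tested but higher in each mLN library. Macrophage markers summed to 283 to 320 CPM in mLN and 342 to 477 in uLN (10 of 10), with 7 of 9 tested markers lower and 2 higher in mLN. Much of the uLN sum was Gpnmb, at 71.6 CPM in mLN and 251 CPM in uLN. Cd68 and Adgre1 rose, Cd68 to 90.2 CPM in mLN, against 24.9 CPM in uLN, and Adgre1 to 61.1 CPM in mLN, against 26.8 CPM in uLN. Endothelial markers summed to 588 to 635 CPM in mLN and 581 to 604 in uLN (5 of 6), nearly all of it Pecam1, which mast cells also express. Keratinocyte markers stood at 167 CPM in mLN replicate 1 and at 20.02 and 37.9 in the other mLN libraries, against 12.9 to 24.6 in uLN, and fibroblast markers at 112, 12.5 and 25.8 CPM in mLN replicates 1, 2 and 3, against 3.73 to 13.1 in uLN. Without mLN replicate 1 the log2 fold changes of H2-K1, B2m and Psmb10 were 0.46, 0.49 and -2.05, each still called. The part of other cell types in the class I changes was otherwise not tested, and in bulk RNA fewer cells with a transcript and less of it per cell cannot be told apart.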

How the data were processed

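RNA from mast cells of mouse lymph nodes was sequenced in 6 libraries, 3 mLN and 3 uLN, grouped by their titles. Per the labels' protocols, the Qiagen RNeasy kit gave the RNA and a BGI DNBSEQ kit the mRNA libraries. TopHat, cutadapt, FastQC and the build GRCm38 are named in the submitters' processing notes. Not given in the sources used here are the counting tool, versions and use of strand. The deposited values are expected counts, 1 table for all genes and libraries, with no scaling stated, of which 32.2% to 32.8% per library are not whole (tolerance 1e-06). They were rounded to whole numbers here. Of 17891 rows, 1 names no gene and was left out. Of the 10 class I genes, 8 overlap an annotated gene on the opposite strand, whose reads cannot be told apart without strand.

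The mLN libraries were compared with uLN by edgeR 4.0.16 in R 4.3.3 (TMM, default expression filter, quasi-likelihood test, Benjamini-Hochberg adjustment over 12706 tested genes), tested on simulated data first. The filter kept all 10 class I genes. Alternatives used other scalings, no filter, DESeq2 1.42.0, limma 3.58.1 (voom), a coefficient of variation of 0.2, a replicate block, and leaving out each library. SE is the log2 fold change over the square root of F. Transcript lengths are from GENCODE M21, coordinates and promoters from RefSeq GRCm38.p6.

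The class I genes and all lists were chosen with earlier results of these data known. The genes named are the 10 class I genes, the 3 constitutive catalytic subunits and, per list, up to 4 called members in order of adjusted p (the 2 most abundant where fewer than 2 were called); others are marked as picked after their values were seen. Likeness names the nearest member and the 2 nearest tested genes.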

Additional observations from a re-analysis of the deposited data

How the results depend on the processing

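With the coefficient of variation set to 0.2, the members called numbered 0 higher and 1 lower, against 6 and 2, and over all genes 2145 were higher and 1913 lower, against 4219 and 4347. The log2 fold changes that lost their call there were 0.43 for H2-K1 (adjusted p = 0.160, edgeR), 0.44 for B2m (0.148), 0.26 for Tap1 (0.426), -0.29 for Tap2 (0.380), 0.17 for Tapbp (0.643), 0.35 for Psmb9 (0.272) and 0.81 for Nlrc5 (0.0734). The counts of falls there came to 1 of 3 constitutive subunits (3 without that setting), 0 other 20S subunits (6), 1 activator or assembly gene (5), 2 loading genes (5), 3 regulators (9) and 0 interferon targets (4). Nlrc5 also lost its call with no expression filter (0.78, adjusted p = 0.0603) and in DESeq2 (0.83, adjusted p = 0.109). H2-D1 was called with library totals only (0.13). The cause of these shifts was not tested.

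Leaving out each library gave log2 fold changes of 0.39 to 0.46 for H2-K1, 0.050 to 0.13 for H2-D1, 0.40 to 0.49 for B2m, 0.25 to 0.27 for Tap1, -0.31 to -0.27 for Tap2, 0.14 to 0.18 for Tapbp, -0.094 to 0.013 for Psmb8, 0.26 to 0.44 for Psmb9, -2.09 to -1.96 for Psmb10, 0.67 to 0.96 for Nlrc5 and 0.14 to 0.21 for the summed heavy chains. It gave 3843 to 4403 genes higher and 4017 to 4492 lower. Replicate numbers are shared between the groups, but same-numbered libraries did not deviate together (correlations of 0.0248, -0.155 and -0.0133). With the replicate block Nlrc5 was not called (0.81, adjusted p = 0.0570), while the other 9 members kept their calls, and the rises among proteasome activator and assembly genes numbered 2 in place of 1, as they also did with DESeq2-type size factors. For the 31 named genes of the related lists, 392 of 403 alternative values kept direction and call, and the other 11 were calls lost at a coefficient of variation of 0.2. At these depths Nlrc5, with at most 29 reads a library, is known only roughly.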
